A study of Rattus norvegicus with 6 samples.

Results

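Pulmonary surfactant is a film of phospholipids and proteins that lowers surface tension in the alveoli, and it is made by alveolar type II cells. These cells store surfactant in lamellar bodies, secrete it, take part of it back, and share its removal with alveolar macrophages. The 10 genes described here cover these steps: Sftpa1, Sftpb, Sftpc and Sftpd encode the surfactant proteins, Abca3 the lipid transporter of the lamellar body, Lpcat1 an enzyme that makes the main surfactant phospholipid, Napsa a protease that processes the precursors of surfactant proteins, Slc34a2 a phosphate transporter, Muc1 a membrane mucin, and Cebpa a transcription factor. They were chosen by gene name on the array and are 10 of 13541 named genes tested, measured by 16 of 41012 probes.

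The samples were right lungs of male Wistar rats, 9 weeks old at the start, that spent 6 hours a day on 5 days a week for 4 weeks in a whole-body exposure chamber. The groups breathed ultrafine nickel oxide (NiO, the positive control of the study), C60 fullerene (a cage-shaped carbon molecule) or clean air (control), and lungs were taken 3 days or 33 days (1 month) after exposure ended. The arrays compared were 4 NiO, 2 C60 and 3 control at 3 days, and 4 NiO, 4 C60 and 4 control at 1 month, with 1 array taken as 1 rat. Every slide carried arrays of one group only and the times were scanned on separate days, which means that a slide effect cannot be told apart from a group difference, nor a scan effect from time.

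A level below is log2 of the probe's processed signal over the 75th percentile of its array, and a log2 fold is the difference of mean levels between groups. A fold was called at an adjusted p (limma, Benjamini-Hochberg over 24969 features) under 0.05. All 336 member spots on the used arrays were well above background, and 0 of them were saturated. Of the 16 probes, 6 were read on every array from the low-gain scan that the scanner software uses for bright spots (Sftpa1, both probes of Sftpb, the same-strand probe of Sftpc, Sftpd and Napsa). Whole lung was measured, so that fewer type II cells and less RNA per cell cannot be told apart.

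Some probe sequences are printed because the results turn on them, with positions in build rn4 as the scanner files give them. The Cebpa probe lies at chr1:87627054-87627113 on the plus strand, and its capitals mark codons of the basic, DNA-binding region. The middle of 3 Abca3 probes lies at chr10:13659948-13660007 on the plus strand, and its capitals mark codons of a nucleotide-binding motif of the transporter. Of the probes named for Sftpc, one lies at chr15:50923136-50923195 on the minus strand, and the other, printed here, at chr15:50924078-50924357 on the plus strand, opposite to the first.
Cebpa: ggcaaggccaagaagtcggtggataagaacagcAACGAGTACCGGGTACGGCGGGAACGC
Abca3, middle probe: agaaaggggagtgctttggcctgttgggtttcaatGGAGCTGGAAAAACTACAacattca
Sftpc, plus strand: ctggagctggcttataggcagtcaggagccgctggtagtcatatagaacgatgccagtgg

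The remaining probes of genes that were called and are printed here are those of Muc1 (chr2:181402014-181403312, plus strand), Napsa (chr1:95062553-95062612, plus strand) and Sftpa1 (chr16:17573232-17573291, plus strand). The Muc1 probe and the plus-strand Sftpc probe have 60 bases each but cover longer genomic spans, so each joins separate blocks.
Muc1: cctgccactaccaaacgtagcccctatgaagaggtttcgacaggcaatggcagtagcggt
Napsa: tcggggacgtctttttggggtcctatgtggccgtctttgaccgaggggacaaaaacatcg
Sftpa1: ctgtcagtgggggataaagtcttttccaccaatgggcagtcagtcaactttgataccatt

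At 1 month after exposure, 5 of the 10 genes were higher in NiO lungs than in control lungs and 0 were lower: Cebpa, Muc1, Lpcat1, Napsa and Slc34a2. None of the 4 surfactant protein genes and not Abca3 passed the test on its brightest probe. Over all features 30.8% were called in this comparison (11.9% higher). The median log2 fold was 0.28 over the 10 genes and -0.12 over all features.

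Muc1, a mucin of the apical membrane of epithelial cells, stood at 3.54, 3.60, 3.82 and 3.53 in the NiO lungs, against 2.45, 2.14, 2.63 and 2.74 in the control lungs at 1 month. The groups did not overlap. The log2 fold was 1.14 (SE 0.16, adjusted p = 0.000209), or 2.2-fold. Napsa, the aspartic protease napsin A, stood at 6.99, 7.02, 7.24 and 7.06 in NiO lungs, against 6.47, 6.40, 6.61 and 6.46 in control lungs. These groups did not overlap either, and the log2 fold was 0.59 (SE 0.09, adjusted p = 0.000427).

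Lpcat1, which adds an acyl chain to lysophosphatidylcholine, stood at 1.43, 1.68, 1.67 and 1.58 in NiO lungs, against 0.79, 0.47, 0.75 and 0.55 in control lungs. All NiO lungs lay above all control lungs, with a log2 fold of 0.95 (SE 0.21, adjusted p = 0.00427). A second, dimmer Lpcat1 probe gave 0.79 (SE 0.26, adjusted p = 0.028). The position given for this probe of 60 bases covers only 25 bases. Slc34a2, which carries phosphate into type II cells, stood at 3.12, 3.26, 3.25 and 2.97 in NiO lungs, against 2.84, 2.74, 2.67 and 2.78 in control lungs. The groups were separate, and the log2 fold was 0.39 (SE 0.11, adjusted p = 0.0116). Its second probe gave a like size, 0.40, with a wider error (SE 0.22, adjusted p = 0.165).

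Cebpa stood at -2.66, -2.24, -2.22 and -2.52 in NiO lungs, against -4.46, -4.81, -3.57 and -3.30 in control lungs at 1 month. The log2 fold was 1.63 (SE 0.40, adjusted p = 0.00693), the largest of the 10 genes. The control lungs at 1 month were the low ones: control lungs at 3 days stood at -1.56, -1.87 and -1.87. Control at 1 month was thus lower than control at 3 days, with a log2 fold of -2.27 (SE 0.43, adjusted p = 0.000446). Cebpa was the single member called on its brightest probe, where 46% of all features were called (18.3% lower). Folds were positive in 2 of the 10 genes. Lpcat1 (-0.50, adjusted p = 0.0792) and Slc34a2 (-0.26, adjusted p = 0.0739) were lower on their brightest probes but not called. Dimmer probes were also lower for Abca3 (middle probe, -1.62, adjusted p = 0.000505), Lpcat1 (-1.34, adjusted p = 0.000843), Slc34a2 (-1.10, adjusted p = 0.00121) and Sftpb (-0.35, adjusted p = 0.0415). The remaining Abca3 probe (-0.37, adjusted p = 0.0926) and the plus-strand Sftpc probe (0.52, adjusted p = 0.632) were not called. For Cebpa, NiO lungs at 1 month were above the control lungs of the same time and below the control lungs at 3 days.

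**Figure D1:**
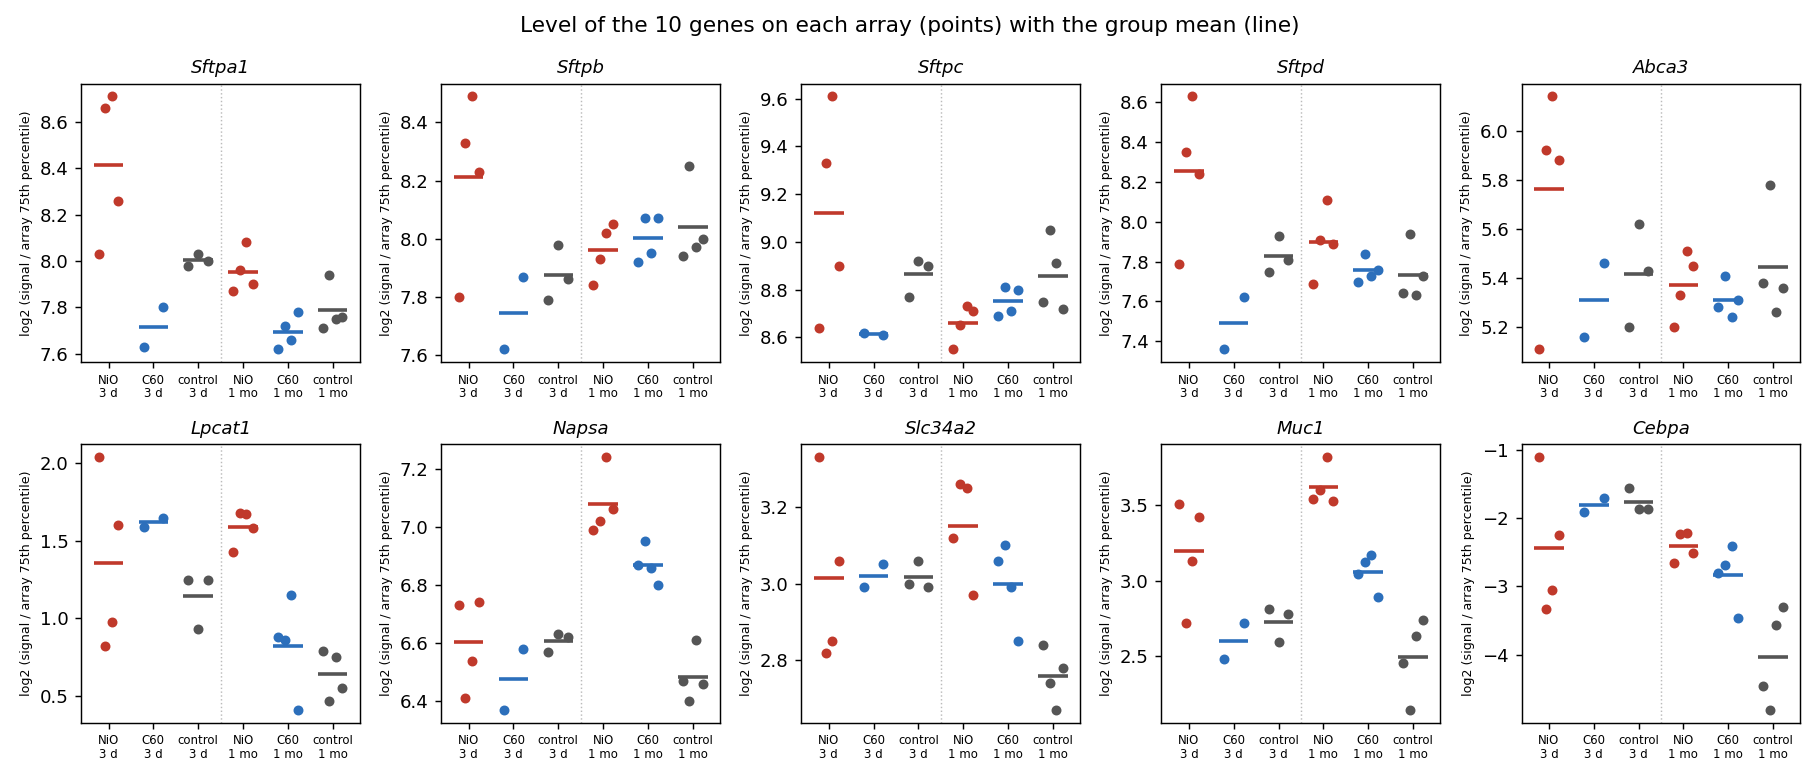
Level of each of the 10 genes (log2 of signal over the array's 75th percentile, y axis) on each array (points) in the 6 groups, with the group mean as a line. At 1 month the NiO points of Muc1, Napsa, Lpcat1, Slc34a2 and Cebpa lie above all control points, and at 3 days the NiO points are spread widely.

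None of the 4 surfactant protein genes was called at 1 month on its brightest probe with this scaling, but Sftpb had a dimmer probe that was called. Sftpc, the protein made by type II cells alone in the lung, stood at 8.55, 8.65, 8.73 and 8.71 in NiO lungs, against 8.75, 9.05, 8.91 and 8.72 in control lungs. The groups overlapped, and the log2 fold was -0.20 with a 95% interval of -0.52 to 0.12 (adjusted p = 0.313). Sftpa1 and Sftpd, collectins that bind microbes, gave 0.17 (interval -0.09 to 0.43) and 0.16 (interval -0.13 to 0.46). Sftpb, needed to form the surface film, gave -0.08 (interval -0.34 to 0.18) on its brighter probe and 0.52 (SE 0.12, adjusted p = 0.00633) on its dimmer one, and is given no single direction.

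Those folds depend on how arrays are scaled, because the median of all features moves with it. In NiO against control at 1 month that median was -0.12 with the 75th percentile, 0.02 with quantile normalization and 0.21 with median scaling, and the share of calls that were higher was 38.7%, 55.3% and 77.4% in the same order. With quantile normalization Sftpa1 was called higher, at 0.20 (adjusted p = 0.0416). With median scaling Sftpa1 and Sftpd were called higher, at 0.50 and 0.50 (adjusted p = 0.0028 and 0.00799), and the signs of Sftpb, Sftpc and Abca3 turned. The folds of Cebpa, Muc1, Lpcat1, Napsa and Slc34a2 stayed called under both of these settings. In the authors' deposited table the NiO ratio over the control column at 1 month was 0.51 for Sftpa1, 0.50 for Sftpd, 0.26 for Sftpb, 0.14 for Sftpc and 1.47 for Muc1 on the log2 scale.

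C60 lungs at 1 month differed from control lungs in 3 of the 10 genes, all higher: Cebpa, Muc1 and Napsa. Over all features 19.7% were called (7.29% higher), and the median log2 fold was 0.10 over the 10 genes and -0.09 over all features, which became 0.04 with quantile normalization and 0.22 with median scaling. The share of calls that were higher was 37%, 55.3% and 78.6% in the same order.

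Napsa stood at 6.87, 6.95, 6.86 and 6.80 in C60 lungs, all above the control lungs given above, with a log2 fold of 0.39 (SE 0.09, adjusted p = 0.00945). Muc1 stood at 3.04, 3.12, 3.17 and 2.89 in C60 lungs, again above all control lungs, with a log2 fold of 0.57 (SE 0.16, adjusted p = 0.0206). Cebpa stood at -2.81, -2.69, -2.41 and -3.46 in C60 lungs, which overlapped the control lungs, with a log2 fold of 1.19 (SE 0.40, adjusted p = 0.0433). The Cebpa call was lost in 14 of the 21 fits that left out 1 array. Without control array 2 the Cebpa fold was 0.93 (adjusted p = 0.151) and the Muc1 fold 0.45 (adjusted p = 0.0754). With quantile normalization the Napsa fold was 0.30 (adjusted p = 0.0931), and with no scaling 0 of the 10 genes were called. Lpcat1, called in NiO lungs, had a C60 log2 fold of 0.18 (SE 0.21, adjusted p = 0.541), and Slc34a2 one of 0.24 (SE 0.11, adjusted p = 0.107).

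NiO and C60 lungs at 1 month were set against each other directly. None of the 10 genes was called by limma, where 1.23% of all features were (0.833% higher). An unadjusted p under 0.05 was found in 4 of them, with no share over all features given here. NiO lungs did not overlap C60 lungs in the same 4 genes, being higher in Muc1, Napsa, Lpcat1 and Sftpa1, so these counts are not independent. Over all features, NiO lungs lay above all C60 lungs in 6.3%. The log2 folds were 0.77 for Lpcat1 (interval 0.32 to 1.21, adjusted p = 0.0968) and 0.57 for Muc1 (interval 0.24 to 0.90, adjusted p = 0.0984).

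**Figure D2:**
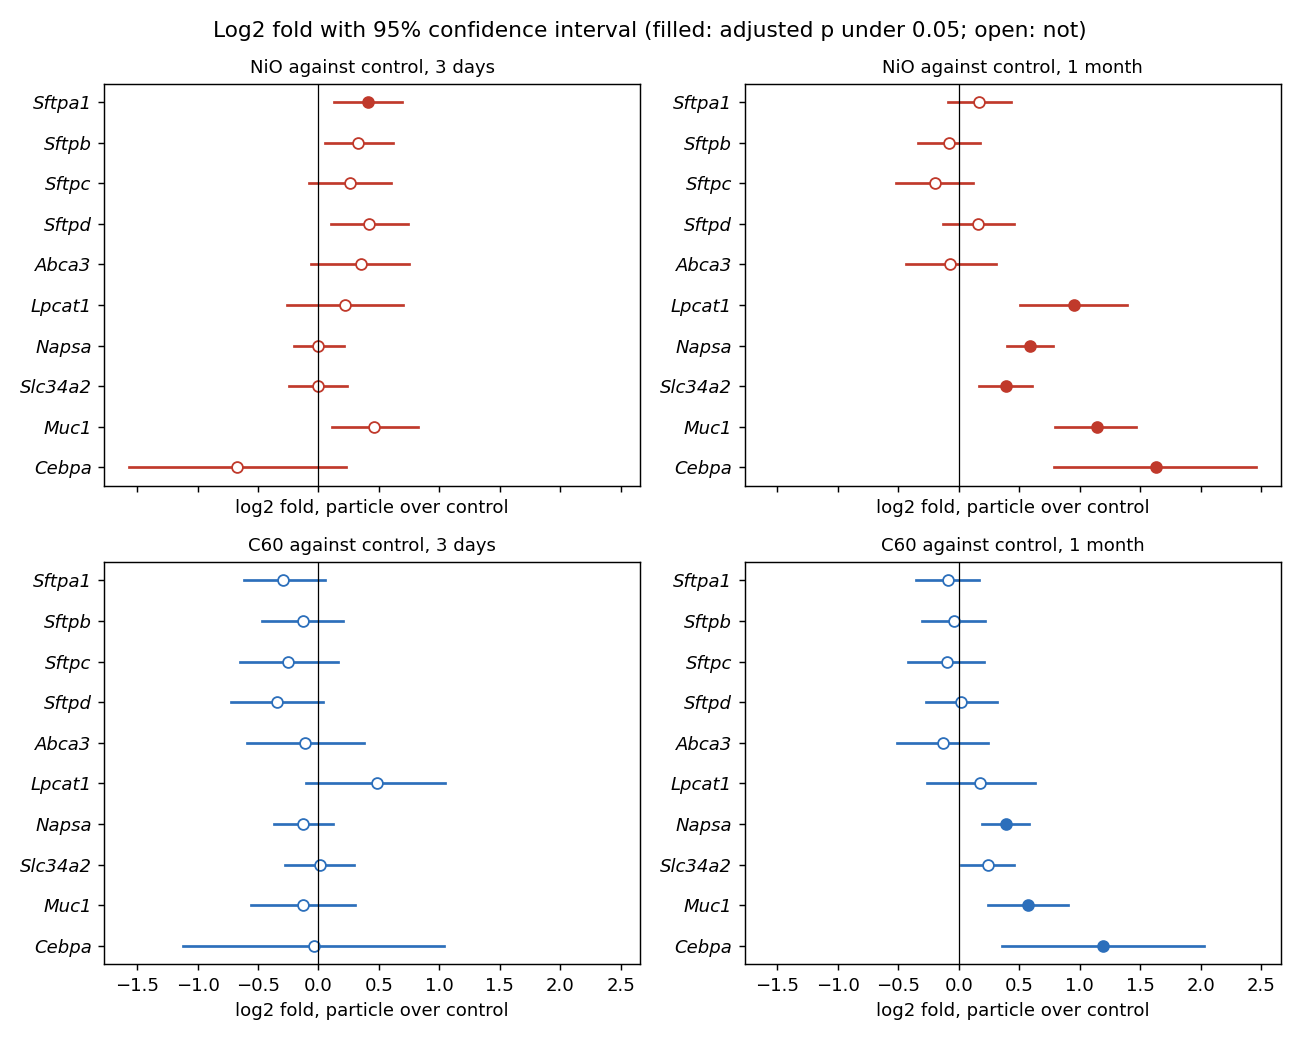
Log2 fold of particle over control (x axis) with its 95% confidence interval for each of the 10 genes, in 4 comparisons; filled points have an adjusted p under 0.05. On their brightest probes the 4 surfactant protein genes have intervals that include 0 at 1 month, while Cebpa, Muc1 and Napsa lie to the right of 0 for both particles at that time.

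At 3 days after exposure, a single member was called in NiO lungs against control lungs, Sftpa1, which was higher. Over all features 19% were called (11.1% higher, 7.85% lower), and the median log2 fold was 0.30 over the 10 genes and 0.04 over all features, which became -0.04 with quantile normalization and -0.13 with median scaling. The share of calls that were higher was 58.6%, 45.8% and 34.7% in the same order.

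Sftpa1 stood at 8.03, 8.66, 8.71 and 8.26 in NiO lungs, against 7.98, 8.03 and 8.0 in control lungs. NiO arrays 2 and 3 were the highest and array 1 lay at the level of the control arrays. The log2 fold was 0.41 (SE 0.13, adjusted p = 0.0397), with quantile normalization it was 0.18 (adjusted p = 0.0985), and without array 2 or array 3 it was 0.33 or 0.31 (adjusted p = 0.126 and 0.129). Sftpd gave 0.42 (SE 0.15, adjusted p = 0.0593), Sftpb 0.33 (SE 0.13, adjusted p = 0.0837) and Muc1 0.46 (SE 0.17, adjusted p = 0.0628). Napsa and Slc34a2 had log2 folds of 0.00 (intervals -0.20 to 0.21 and -0.24 to 0.24).

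Before scaling, the highest of the 21 arrays was 1.28 times the lowest for Sftpc, 1.36 times for Sftpa1, 1.51 times for Sftpb and 1.60 times for Sftpd. Sftpc had a processed signal of 237200 to 261900 on the 4 NiO arrays at 3 days, against 264700 to 304800 on the 3 control arrays. Sftpa1 had 140500 to 165900 on the NiO arrays, against 151100 to 164000 on the control arrays. At 1 month the unscaled Sftpa1 signals did not overlap, at 155800 to 167800 on the NiO arrays, against 123000 to 133500 on the control arrays. Nor did those of Sftpd, at 137100 to 171300 on the NiO arrays, against 113500 to 130800 on the control arrays. The 75th percentile by which each array is divided did not overlap at 1 month either. It was 618.2 to 683.9 on the NiO arrays, against 501.9 to 616.9 on the control arrays. After scaling, Sftpa1 and Sftpd overlapped between these groups. At 3 days the 75th percentile was 593.5, 372.4, 336.1 and 541.3 on NiO arrays 1 to 4, against 607.9, 579.3 and 640.2 on the control arrays. Arrays 2 and 3 were thus the dimmest of the 21 by this measure and the highest in scaled Sftpa1, Sftpb, Sftpc and Sftpd. With no scaling between arrays the Sftpa1 fold was -0.03 (adjusted p = 0.809), while the median of all features was -0.40.

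**Figure D3:**
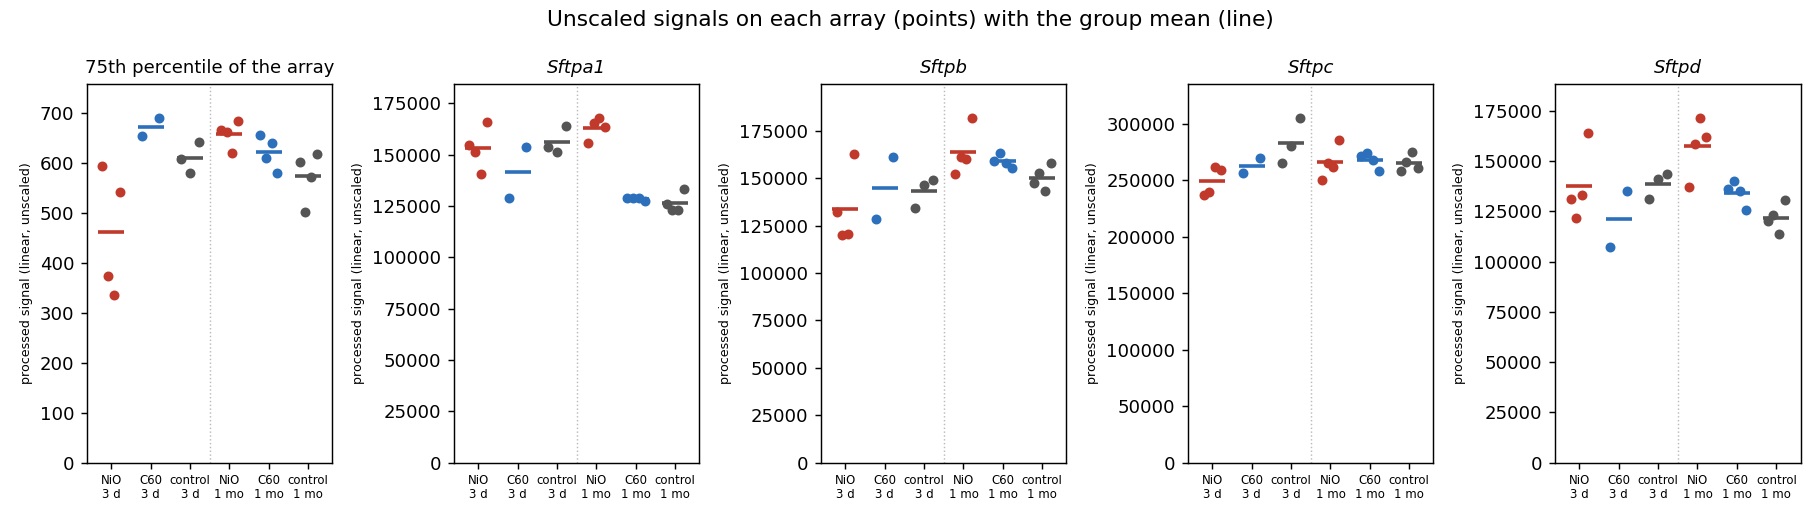
Processed signal without scaling (linear axis from 0) on each array (points) with the group mean (line), for the array's 75th percentile and for Sftpa1, Sftpb, Sftpc and Sftpd. NiO arrays 2 and 3 at 3 days have the lowest 75th percentile, 372.4 and 336.1, while their Sftpc signals stay within 237200 to 261900.

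The 4 NiO arrays at 3 days differed among themselves in both directions. Cebpa stood at -1.11, -3.33, -3.06 and -2.25 on arrays 1 to 4, against -1.56, -1.87 and -1.87 in control lungs. Array 1 lay above the control arrays and the other 3 below them, and the log2 fold was -0.67 (SE 0.43, adjusted p = 0.273). Lpcat1 stood at 2.04, 0.82, 0.98 and 1.60 on the same arrays, against 1.25, 0.93 and 1.25 in control lungs. Without array 1, 6 of the 10 genes were called, 5 higher and 1 lower, among them Cebpa at -1.11 (adjusted p = 0.0216), in a fit that called 38.4% of all features (58.5% of them higher). Without arrays 2 and 3 together, 2 were called, Lpcat1 at 0.68 (adjusted p = 0.0435) and Muc1 at 0.73 (adjusted p = 0.0109), in a fit that called 6.3% of all features.

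C60 lungs at 3 days, with 2 arrays, had 0 of the 10 genes called by limma against control, where 4.93% of all features were (2.94% higher, 1.99% lower), and 0 at an unadjusted p under 0.05. Sftpa1 stood at 7.63 and 7.80 in C60 lungs, against 7.98, 8.03 and 8.0 in control lungs. Its log2 fold was -0.29 (interval -0.62 to 0.05). The other folds ran between -0.34 for Sftpd and 0.48 for Lpcat1. With all 4 arrays that came with this group, Sftpa1 and Sftpd were called lower, at -0.61 and -0.58 (adjusted p = 0.0231 and 0.0283).

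NiO against C60 at 3 days gave 2 calls among the 10 genes, both higher, where 7.78% of all features were called (5.06% higher, 2.72% lower). Sftpa1 had a log2 fold of 0.70 (SE 0.15, adjusted p = 0.01) and Sftpd one of 0.76 (SE 0.17, adjusted p = 0.0132). Sftpd stood at 7.79, 8.35, 8.63 and 8.24 in NiO lungs, against 7.36 and 7.62 in C60 lungs. Without C60 array 1 these folds were 0.61 and 0.64 (adjusted p = 0.141 and 0.186), and with no scaling they were 0.12 and 0.18 (adjusted p = 0.408 and 0.292). The share of all calls that were higher was 65% here, 52% with quantile normalization, 49.2% with median scaling and 7% with no scaling.

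The difference between the times was tested as the particle effect at 1 month minus that at 3 days. For NiO, 3 of the 10 genes were called, each with a higher effect at 1 month, where 37.5% of all features were called (14.4% higher). The differences were 2.30 for Cebpa (SE 0.58, adjusted p = 0.00827), 0.67 for Muc1 (SE 0.23, adjusted p = 0.0316) and 0.59 for Napsa (SE 0.13, adjusted p = 0.00519). The mean Cebpa level was alike in NiO lungs at 3 days and 1 month, at -2.44 and -2.41. In control lungs it was -1.77 and -4.04. The NiO arrays at 3 days ran from -3.33 to -1.11, and a scan effect cannot be told apart from time in these levels. The NiO lungs at 1 month and at 3 days were not tested against each other. For C60, Napsa alone of the 10 was called, at 0.51 (SE 0.15, adjusted p = 0.0361), where 10.4% of all features were called (4.23% higher, 6.19% lower). That call was lost in 9 of the 21 fits that left out 1 array, and the Muc1 call for NiO in 6 of them. The median of all features in the NiO difference was -0.18, against 0.03 with quantile normalization and 0.34 with median scaling, and the share of calls that were higher was 38.5%, 59.9% and 76.1% in the same order. Without NiO 3-day arrays 2 and 3 the NiO difference of Muc1 was 0.40 (adjusted p = 0.169) and that of Cebpa 1.54 (adjusted p = 0.0538).

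Probes of the same gene did not always move together. Abca3 has its brightest probe at the end of the gene, and the probe printed above starts 4838 genomic bases before it. At 1 month the last probe stood at 5.20, 5.33, 5.51 and 5.45 in NiO lungs, against 5.38, 5.78, 5.26 and 5.36 in control lungs, a log2 fold of -0.07 (SE 0.18, adjusted p = 0.786). The middle probe stood at 2.03, 2.27, 2.30 and 2.26 in NiO lungs, against 1.23, 0.67, 1.35 and 1.51 in control lungs, a log2 fold of 1.02 (SE 0.29, adjusted p = 0.0147). The remaining probe, farther upstream, gave -0.49 (SE 0.16, adjusted p = 0.0327). Abca3 is therefore reported with no single direction.

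The Sftpb probes also differed, over a short distance. The dimmer probe, whose start lies 142 bases from that of the brighter one, stood at 7.0, 7.0, 7.24 and 7.18 in NiO lungs, against 6.65, 6.59, 6.49 and 6.61 in control lungs at 1 month. The groups did not overlap, and the log2 fold was 0.52 (SE 0.12, adjusted p = 0.00633), against -0.08 for the brighter probe. In C60 lungs at 1 month the dimmer probe gave 0.51 (SE 0.12, adjusted p = 0.012).

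The last Abca3 probe was read from the low-gain scan on 20 of 21 arrays, and the middle probe on 0. The middle probe minus the last probe is free of the array's scaling factor, but not of a difference between the scans. It was -3.21 to -3.06 in NiO lungs, -3.76 to -2.95 in C60 lungs and -5.10 to -3.85 in control lungs at 1 month, and -4.50 to -1.78 in NiO lungs, -2.49 to -2.42 in C60 lungs and -2.85 to -2.19 in control lungs at 3 days. The control lungs at 1 month were the lowest group at that time, as they were for Cebpa, and the 3-day NiO lungs were the most spread, also as for Cebpa. The part of this difference between probes in the Cebpa result was not tested.

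**Figure D4:**
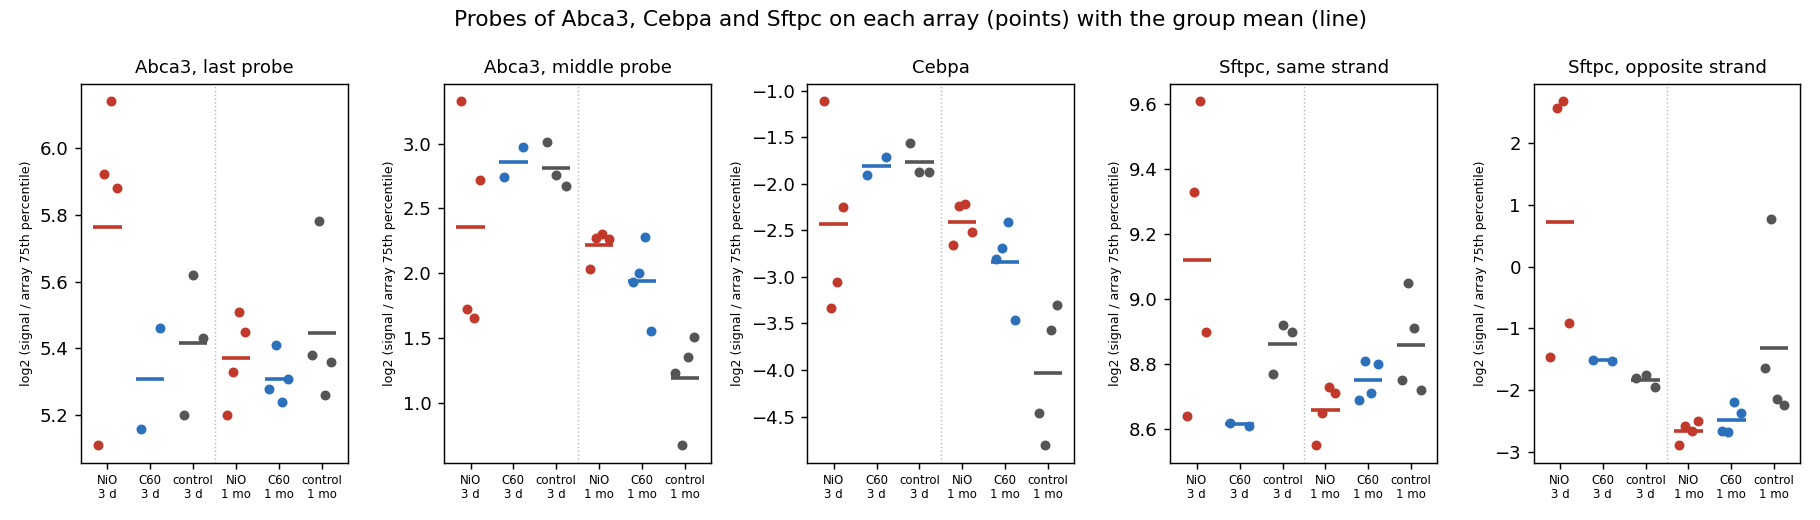
Level (log2 of signal over the array's 75th percentile, y axis) of the last and middle Abca3 probes, the Cebpa probe and both Sftpc probes on each array (points), with the group mean as a line. The middle Abca3 probe and Cebpa are low in control lungs at 1 month and on NiO arrays 2 and 3 at 3 days, which the last Abca3 probe is not.

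The probe on the strand opposite to Sftpc had its 3 highest arrays in common with the Sftpc probe. It stood at -1.46, 2.57, 2.69 and -0.91 on the NiO arrays at 3 days, against -1.81, -1.75 and -1.95 in control lungs. Arrays 2 and 3 were far above all others, and the next highest was 1 control array at 1 month, at 0.78. The log2 fold at 3 days was 2.56 (SE 0.84, adjusted p = 0.0438). Whether this probe reads a transcript separate from Sftpc was not tested.

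The other lists are read against all features, of which NiO at 1 month had 11.9% called higher and 18.9% lower (median log2 fold -0.12), NiO at 3 days 11.1% and 7.85% (median 0.04), C60 at 1 month 7.29% and 12.4% (median -0.09), and C60 at 3 days 2.94% and 1.99%. Among genes of surfactant lipid synthesis, 12 of 28 measured were higher and 2 lower in NiO lungs at 1 month, with a median log2 fold of 0.21. Scd, a fatty acid desaturase, was higher by 1.05 (SE 0.38, adjusted p = 0.0427), Fabp5, a fatty acid binding protein, by 0.78 (SE 0.15, adjusted p = 0.00156) and Lpcat3, an acyltransferase, by 0.66 (SE 0.16, adjusted p = 0.00766). Pcyt1b, an isoform of the rate-setting enzyme of phosphatidylcholine synthesis, was lower, at -0.73 (SE 0.21, adjusted p = 0.0174). At 3 days 7 were higher and 0 lower in NiO lungs, led by Fabp5 at 1.35 (SE 0.16, adjusted p = 2.31e-05). C60 lungs had 0 called by limma at 3 days, where 5 had an unadjusted p under 0.05, and 3 higher at 1 month, Agpat2, Chkb and Pemt.

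Genes of surfactant processing and clearance showed 10 of 21 higher and 2 lower in NiO lungs at 1 month (median 0.34). Pla2g15, a lysosomal phospholipase, was higher by 1.71 (SE 0.24, adjusted p = 0.000244), P2ry2, a nucleotide receptor that triggers surfactant secretion, by 1.22 (SE 0.21, adjusted p = 0.00105) and Abcg1, a lipid exporter of macrophages, by 1.14 (SE 0.12, adjusted p = 3.59e-05). Csf2rb, a subunit of the receptor through which macrophages are primed to clear surfactant, was lower in NiO lungs, at -1.61 (SE 0.48, adjusted p = 0.0195), and in C60 lungs, at -1.84 (SE 0.48, adjusted p = 0.016). At 3 days 6 were higher and 2 lower in NiO lungs, with Lamp3, a lamellar body protein, at 0.77 (SE 0.11, adjusted p = 0.000121). C60 lungs at 1 month had 2 higher and 3 lower, with Pla2g15 at 0.89 (SE 0.24, adjusted p = 0.0187), P2ry2 at 0.72 (SE 0.21, adjusted p = 0.0266) and Atp8a1, a phospholipid flippase, at -1.01 (SE 0.34, adjusted p = 0.0477). C60 lungs at 3 days had 1 lower, the receptor gene Adgrl2, at -0.67 (adjusted p = 0.0319).

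The list of other type II cell markers also holds Abca3 and shares genes, such as Fabp5 and Lamp3, with other lists. Of its genes, 9 of 23 were higher and 2 lower in NiO lungs at 1 month (median 0.23), and 3 were higher in C60 lungs: Pla2g1b, Egfl6 and Cd74. Of transcription factors of type II cells, 2 of 13 were higher and 1 lower in NiO lungs at 1 month (median -0.04). Cebpb, a relative of Cebpa, was higher in NiO lungs at 1 month, at 1.13 (SE 0.17, adjusted p = 0.00042), and lower at 3 days, at -0.81 (SE 0.19, adjusted p = 0.00709). At 3 days Cebpb was also lower in C60 lungs, at -0.86 (SE 0.22, adjusted p = 0.0304), and Cebpd, another relative, was lower in NiO lungs, at -0.98 (SE 0.23, adjusted p = 0.00767), and in C60 lungs, at -1.25 (SE 0.27, adjusted p = 0.0106). The counts of this list were 1 higher and 3 lower in NiO lungs at 3 days, 1 and 2 in C60 lungs at 3 days, and 1 and 0 in C60 lungs at 1 month. Like Cebpa, the single gene Cebpb was lower in control lungs at 1 month than at 3 days, at -1.51 (SE 0.19, adjusted p = 9.89e-06).

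Markers of other cells moved in the same lungs. Of 13 macrophage markers, 7 were higher and 1 lower in NiO lungs at each time, and 0 were called by limma in C60 lungs at either (0 at 3 days and 2 at 1 month had an unadjusted p under 0.05). Mmp12, a macrophage elastase, was higher by 6.43 (SE 0.61, adjusted p = 2.89e-06) at 3 days and by 3.22 (SE 0.57, adjusted p = 0.00109) at 1 month in NiO lungs. The mean of the macrophage list, centred on all arrays, was 0.38 to 0.81 in NiO lungs and -0.53 to -0.33 in control lungs at 3 days, and -0.05 to 0.91 in NiO lungs and -0.21 to 0.01 in control lungs at 1 month. Of 14 endothelial markers 6 were lower in NiO lungs at 3 days and 2 at 1 month, Kdr and Tek, while 3 were higher in C60 lungs at 1 month, Eng, Tie1 and Cldn5. Of 11 type I cell markers 4 were lower and 1 higher in NiO lungs at 3 days, and 1 was higher at 1 month in each particle group, Ager, at 0.60 (adjusted p = 0.00912) in NiO lungs and 0.52 (adjusted p = 0.0274) in C60 lungs. Of 15 cell cycle genes 10 were higher in NiO lungs at 3 days and 5 at 1 month. Of 9 club cell markers 3 were lower in NiO lungs at 3 days, and 1 was higher and 1 lower at 1 month, while 2 were higher in C60 lungs at 1 month, Scgb1a1 and Cyp4b1. Of 11 general epithelial markers 2 were higher and 1 lower at 3 days and 3 were higher at 1 month, in NiO lungs and also in C60 lungs: Krt8, Krt19 and Cldn3. Of 9 ciliated cell markers 2 were lower in NiO lungs and 2 in C60 lungs at 3 days, and 1 was higher and 2 lower in NiO lungs at 1 month. None of 5 erythroid markers was called by limma in either particle group at either time, and 1 had an unadjusted p under 0.05, in NiO lungs at 3 days. The part of these shifts in the member results was not tested.

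By Pearson correlation over the 21 arrays, the genes most like the mean of the 10 were Dpp7 (0.945), Asns (0.939), Yipf2 (0.926), Vim (0.924) and Zbtb48 (0.924), out of 13531 candidates. Those most like Cebpa were Got2 (0.989), Asxl1 (0.986) and Klhl22 (0.985), and those most like Sftpc included Lyz2 (0.977) and Ttc27 (0.936). The 10 genes did not share one profile, as Sftpb correlated at 0.9 with Abca3 and at -0.51 with Cebpa. Cebpa had the widest range of the 10 genes over the arrays, at 3.7. The arrays share scaling and slide, so these values are descriptions.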

How the data were processed

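Scanner files of 23 one-colour rat arrays with 41012 probes were the starting point. Each spot has a processed intensity from Feature Extraction 9.5.3.1, per the file headers, background-subtracted and detrended, with bright spots taken from a low-gain scan and positions in build rn4. Other deposited columns hold spot flags. The deposited value table holds a ratio per probe for each group; its scale and centring are not stated in the sources used here, and the member values matched median scaling of the scanner intensities. The label of the C60 3-day sample gives 2 arrays where 4 files came, so arrays 1 and 2, whose mean matched the deposited column (median absolute log2 difference 0.000823, against 0.111 for all 4), were used, which left 21.

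Intensities were divided by the array's 75th percentile and taken to log2. Control spots were left out, and 28671 probes well above background in a group were kept. The brightest probe of a gene stood for it, which gave 24969 features, 13541 of them with a symbol (RefSeq names, GRCr8, through accessions or older symbols). limma 3.58.1 in R 4.3.3 was fitted over 6 groups (15 residual degrees of freedom), with Benjamini-Hochberg adjustment over all features and a threshold of 0.05. Where no separate source is stated for arrays of a group, p-values measure the spread between arrays. The number of arrays limits the precision.

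The members and the 13 gene lists (members, lipid synthesis, processing and clearance, transcription factors, other type II markers, type I, club, epithelial, macrophage, endothelial, ciliated, cell cycle, erythroid) were chosen with earlier results of these data known. Up to 4 called genes with the largest fold per list and comparison were named. Alternatives covered background correction, scaling, filters, probes, arrays and slide means. The fit was tested on simulated data. One gene that the rule for likeness to Sftpc picks is not reported here.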

Additional observations from a re-analysis of the deposited data

Results flagged for a closer look

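The NiO effect differed between the times in 3 genes, by a test of the difference itself. The effect at 1 month was higher by 2.30 for Cebpa, 0.67 for Muc1 and 0.59 for Napsa on the log2 scale. Mean Cebpa levels at 3 days and 1 month were -2.44 and -2.41 in NiO lungs, and -1.77 and -4.04 in control lungs. The C60 effect differed in Napsa, by 0.51. Among 64 sets of 4 arrays of a probe in a group, 2 held an array far from the others, where chance flags about 1 in 20. The middle Abca3 probe stood at 2.03 on one NiO array at 1 month, with the nearest array at 2.26. The dimmer Sftpb probe stood at 6.83 on one C60 array at 1 month, with the nearest at 7.15.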

How the results depend on the processing

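Of the called folds, those of Cebpa, Lpcat1, Muc1 and Napsa in NiO lungs at 1 month kept their call in 34 of 35 alternatives, all but slide means, and the NiO difference of Napsa in 34 of 34. No called fold changed sign except Sftpa1 in NiO lungs at 3 days. Slide means leave 2 residual degrees of freedom and give no value for the differences between times. Dropping NiO 3-day arrays 2 and 3, second probes and no scaling were added after seeing the data. The cause of these changes was not tested. No paired analysis was possible because the labels give no replicate numbers that groups share. The signals of the 4 surfactant protein genes came from the low-gain scan, and the part of this in their folds was not tested.

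The number of the 10 genes called changed by comparison. Counts that moved by over 1.5 times are given here, together with every count that moved for NiO against control at 1 month. The share of all features called also changed between fits and is not given beside each count. These counts therefore describe the fits and are not read as results about the 10 genes. NiO against control at 3 days had 1 called, and 0 with quantile normalization, median scaling, no filter, all 4 C60 arrays, the compared groups alone, slide means and no scaling and 2 with dropping NiO 3-day arrays 2 and 3 and second probes, and leaving out 1 array gave 0 to 6. NiO against control at 1 month had 5 called, and 0 with slide means, 6 with quantile normalization (adding Sftpa1), 7 with median scaling (adding Sftpa1 and Sftpd), 6 with second probes (adding Sftpb and Abca3, losing Slc34a2) and 6 with no scaling (adding Sftpa1 and Sftpd, losing Slc34a2). C60 against control at 3 days had 0 called, and 2 with all 4 C60 arrays. C60 against control at 1 month had 3 called, and 0 with slide means and no scaling, and leaving out 1 array gave 1 to 4. NiO against C60 at 3 days had 2 called, and 0 with the compared groups alone, slide means and no scaling, 1 with quantile normalization and dropping NiO 3-day arrays 2 and 3 and 7 with all 4 C60 arrays, and leaving out 1 array gave 0 to 5. NiO against C60 at 1 month had 0 called, and 1 with quantile normalization and 2 with the compared groups alone and dropping NiO 3-day arrays 2 and 3, and leaving out 1 array gave 0 to 1. The NiO effect at 1 month minus 3 days had 3 called, and 1 with dropping NiO 3-day arrays 2 and 3, 5 with median scaling and 6 with second probes and no scaling, and leaving out 1 array gave 2 to 10. The C60 effect at 1 month minus 3 days had 1 called, and 0 with normexp, quantile normalization, no filter and no scaling, 2 with all 4 C60 arrays and dropping NiO 3-day arrays 2 and 3 and 3 with median scaling, and leaving out 1 array gave 0 to 2. Control at 1 month against control at 3 days had 1 called, and 0 with slide means, 2 with median scaling, the compared groups alone and no scaling, 3 with dropping NiO 3-day arrays 2 and 3 and 5 with quantile normalization and second probes, and leaving out 1 array gave 1 to 3.

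Signs turned as follows. In NiO against control at 3 days, no scaling gave Sftpa1 -0.03, Sftpb -0.11, Sftpc -0.18, Sftpd -0.02, Abca3 -0.10, Lpcat1 -0.23, Napsa -0.44 and Slc34a2 -0.44, second probes gave Sftpb -0.24, Abca3 -0.46 and Lpcat1 -0.03, quantile normalization gave Sftpc 0.00, Napsa -0.12 and Slc34a2 -0.03, dropping NiO 3-day arrays 2 and 3 gave Sftpc -0.09 and Cebpa 0.08, slide means gave Cebpa 0.48, normexp gave Napsa -0.05 and Slc34a2 -0.03, median scaling gave Napsa -0.17 and Slc34a2 -0.18, and leaving out 1 array gave Lpcat1 -0.01 to 0.40, Napsa -0.04 to 0.07 and Slc34a2 -0.10 to 0.07. In NiO against control at 1 month, normexp gave Sftpb 0.01, median scaling gave Sftpb 0.26, Sftpc 0.14 and Abca3 0.27, slide means gave Sftpb 0.13, Sftpc 0.03 and Abca3 0.14, second probes gave Sftpb 0.52 and Abca3 1.02, no scaling gave Sftpb 0.12, Sftpc 0.00 and Abca3 0.13, and leaving out 1 array gave Abca3 -0.13 to 0.04. In C60 against control at 3 days, quantile normalization gave Sftpb 0.04 and Napsa 0.03, second probes gave Sftpb 0.03, Sftpc 0.32, Abca3 0.04 and Lpcat1 -0.01, no scaling gave Sftpb 0.01, Abca3 0.03, Cebpa 0.10, Muc1 0.01 and Napsa 0.01, normexp gave Cebpa 0.07 and Slc34a2 -0.03, slide means gave Cebpa 0.57, Muc1 0.22 and Napsa 0.13, median scaling gave Slc34a2 -0.02, all 4 C60 arrays gave Slc34a2 0.00, and leaving out 1 array gave Abca3 -0.26 to 0.04, Cebpa -0.14 to 0.06 and Slc34a2 -0.03 to 0.04. In C60 against control at 1 month, median scaling gave Sftpa1 0.21, Sftpb 0.27, Sftpc 0.20 and Abca3 0.17, no scaling gave Sftpa1 0.03, Sftpb 0.08 and Sftpc 0.02, normexp gave Sftpb 0.02, quantile normalization gave Sftpb 0.04 and Sftpc 0.00, second probes gave Sftpb 0.51 and Abca3 0.75, slide means gave Sftpd -0.16, and leaving out 1 array gave Sftpb -0.07 to 0.03 and Sftpd -0.01 to 0.09. In NiO against C60 at 3 days, second probes gave Sftpb -0.28 and Abca3 -0.50, no scaling gave Sftpb -0.12, Sftpc -0.08, Abca3 -0.13 and Napsa -0.45, slide means gave Lpcat1 0.25 and Slc34a2 0.07, dropping NiO 3-day arrays 2 and 3 gave Lpcat1 0.20, Cebpa 0.13 and Slc34a2 0.18, quantile normalization gave Napsa -0.15, median scaling gave Napsa -0.02, normexp gave Slc34a2 0.01, all 4 C60 arrays gave Slc34a2 0.00, and leaving out 1 array gave Slc34a2 -0.11 to 0.06. In NiO against C60 at 1 month, slide means gave Sftpb 0.21, Sftpc 0.20 and Cebpa -0.10, second probes gave Sftpb 0.01 and Slc34a2 -0.01 and no scaling gave Sftpb 0.04. In the NiO effect at 1 month minus 3 days, quantile normalization gave Sftpa1 0.02, median scaling gave Sftpa1 0.27, Sftpb 0.10, Sftpc 0.06, Sftpd 0.26 and Abca3 0.10, dropping NiO 3-day arrays 2 and 3 gave Sftpa1 0.03, no scaling gave Sftpa1 0.40, Sftpb 0.23, Sftpc 0.18, Sftpd 0.39 and Abca3 0.23 and second probes gave Sftpb 0.76 and Abca3 1.48. In the C60 effect at 1 month minus 3 days, quantile normalization gave Sftpa1 -0.02 and Sftpb 0.00, second probes gave Sftpc -1.48, Abca3 0.71 and Lpcat1 0.01, median scaling gave Abca3 0.30 and Lpcat1 0.04, all 4 C60 arrays gave Abca3 0.03, and leaving out 1 array gave Sftpb -0.03 to 0.22 and Abca3 -0.18 to 0.12. In control at 1 month against control at 3 days, quantile normalization gave Sftpb -0.01 and Abca3 -0.24, median scaling gave Sftpb 0.00 and Abca3 -0.13, second probes gave Sftpb -0.35, Sftpc 0.52 and Abca3 -1.62, slide means gave Abca3 -0.12, Muc1 0.22 and Napsa 0.25, no scaling gave Abca3 -0.06, and leaving out 1 array gave Sftpc -0.07 to 0.04 and Abca3 -0.08 to 0.13.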
